A study of Rattus norvegicus with 18 samples.

Results

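The genes described here are 10 regulators of how many mitochondria a cell holds and how these organelles fuse and divide: Ppargc1a, Ppargc1b, Esrra, Nrf1, Tfam, Sirt1, Sirt3, Mfn2, Opa1 and Dnm1l. They were chosen by name, as known regulators, by a rule that uses no measured value but that was set with earlier results of these data in view. Of the 10, 9 were measured by 15 probe sets, among 14217 genes measured in all. Sirt1, a nuclear and cytosolic deacetylase that activates PGC-1α, was named by no probe set in the annotation used here and is not analysed here. Where a gene had several probe sets, the brightest by mean signal stood for the gene, and the others are given beside it.

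Liver RNA of adult male Sprague Dawley rats was hybridized to 18 Affymetrix arrays, 6 per group, after 8 weeks of feeding and an overnight fast. The HFD+PE rats ate a high fat diet and received a pomegranate skin extract, 150 mg for each kg of body weight daily, and their livers are labelled normal. The HFD rats ate the high fat diet alone, and their livers are labelled fatty. The chow rats ate standard chow, and their livers are labelled normal. The study asked how the extract acts on diet-induced fatty liver. Comparing HFD+PE with HFD addresses the extract on the fatty diet, HFD with chow addresses the diet, and HFD+PE with chow shows where the treated animals stood relative to standard feeding. Any 2 of these comparisons share the animals of 1 group.

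PGC-1α and PGC-1β, the products of Ppargc1a and Ppargc1b, are coactivators that bind transcription factors such as ERRα (Esrra) and NRF1 and switch on nuclear genes for mitochondrial proteins. Among these is Tfam, which enters the mitochondrion, packages its DNA and starts its transcription. In liver, PGC-1α is known for its induction by fasting and its role in gluconeogenesis and fatty acid oxidation, and PGC-1β for coactivating SREBP in lipid synthesis as well as mitochondrial genes. SIRT3 deacetylates enzymes inside mitochondria, mitofusin 2 and OPA1 fuse the outer and inner membranes, and DRP1, the product of Dnm1l, divides the organelle.

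All values are log2 signals, so a difference of 1 is a doubling, and they were deposited rounded to 0.1. The array medians lay between 5.4 and 5.5. Of the 153 possible pairs of arrays, 3 were nearly identical: 0 probe sets lay more than 2 log2 units apart in them, and 18 to 109 did in each of the other 150. These pairs were HFD+PE 3 and 4, HFD 1 and 2, and chow 3 and 4. The HFD+PE pair was the least clear: the SD of its differences was 0.260 and 18.1% of its values were equal. HFD 3 and HFD 5, counted as separate animals, had an SD of 0.260 and 19.8% equal values, with 22 probe sets over 2 log2 units apart. Chow 6 and HFD 2, from different groups, had an SD of 0.261 and 20.4% equal values, with 18 such probe sets. By the SD and the share of equal values the HFD+PE pair therefore did not stand apart, and only the count of distant probe sets separated it. The chow pair stood apart by its SD of 0.215 but not by its share of equal values. That share was 20.2%, below the 20.9% of chow 6 and HFD+PE 6. Although the labels describe every array as a biological replicate, each of the 3 pairs was treated here, from its values, as 1 animal represented by its mean. That gave 15 animals, 5 in each group. The mean of 6 hybridization control probe sets, RNA added at the bench, split the arrays into a high set of 5 (11.9 to 12.6) and a low set of 13 (10.97 to 11.5). The high set held 2 HFD+PE arrays, 0 HFD arrays and 3 chow arrays, so that control level and diet were partly confounded. Results that rest on these arrays are given with and without them. The 8 hepatocyte markers had mean levels of 13.2 to 13.3 in HFD+PE animals, 13.0 to 13.3 in HFD animals and 13.0 to 13.3 in chow animals, while skeletal muscle markers stayed between 3.16 and 3.48 in every animal.

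The start regions of 4 of the genes are shown because motifs of the same regulatory circuit were searched in them: the gene with the lowest unadjusted p in the comparisons below, Ppargc1b, and the 3 genes whose window held a motif. Each window runs from 250 bases before to 50 bases after the annotated start, from RefSeq on build GRCr8, and is written 5′ to 3′ on the gene's strand. RefSeq windows were matched for 9 of the 10 genes, Sirt1 included and Mfn2 not. Capitals mark the motif found on either strand.
Ppargc1a: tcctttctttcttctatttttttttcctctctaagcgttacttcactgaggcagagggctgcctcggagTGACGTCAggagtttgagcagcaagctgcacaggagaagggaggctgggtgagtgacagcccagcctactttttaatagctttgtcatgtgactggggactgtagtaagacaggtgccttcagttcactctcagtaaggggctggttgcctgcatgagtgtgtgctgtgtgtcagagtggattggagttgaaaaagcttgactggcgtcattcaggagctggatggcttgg
Ppargc1b: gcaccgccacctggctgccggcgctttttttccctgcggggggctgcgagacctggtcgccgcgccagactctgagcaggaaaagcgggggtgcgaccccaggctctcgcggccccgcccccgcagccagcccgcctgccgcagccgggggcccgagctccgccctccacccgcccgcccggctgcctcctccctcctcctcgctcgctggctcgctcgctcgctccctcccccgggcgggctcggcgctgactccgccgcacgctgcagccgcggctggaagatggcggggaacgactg
Tfam: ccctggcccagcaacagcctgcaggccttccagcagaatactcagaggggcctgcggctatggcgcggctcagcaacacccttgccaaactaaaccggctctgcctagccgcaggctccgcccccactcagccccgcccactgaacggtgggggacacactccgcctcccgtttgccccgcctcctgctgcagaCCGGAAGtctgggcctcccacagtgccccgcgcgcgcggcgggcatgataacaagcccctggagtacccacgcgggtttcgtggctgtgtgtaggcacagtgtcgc
Opa1: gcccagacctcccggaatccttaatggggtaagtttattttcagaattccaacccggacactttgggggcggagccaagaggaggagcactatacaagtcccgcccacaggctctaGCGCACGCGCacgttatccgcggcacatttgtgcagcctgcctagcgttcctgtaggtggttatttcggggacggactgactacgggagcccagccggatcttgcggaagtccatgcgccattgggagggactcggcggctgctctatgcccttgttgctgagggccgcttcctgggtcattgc
The Ppargc1a window, chr14:63634058-63634357 on the plus strand, held the cAMP response element TGACGTCA. This motif stood in 1.83% of all 33469 windows. The Tfam window, chr20:17355123-17355422 on the plus strand, held CCGGAAG, the core bound by GABP, which stood in 8.75% of windows. The Opa1 window, chr11:84689851-84690150 on the minus strand, held GCGCACGCGC, a match to the NRF1 motif (GCGCA, any base, then GCGC), which stood in 4.25% of windows. The Ppargc1b window, chr18:57131417-57131716 on the minus strand, held none of the 4 motifs searched. The fourth, TNAAGGTCA, bound by ERRα, stood in 0 of the 9 members' windows and in 1.2% of all windows. A match describes letters in these windows and no binding, and the arrays measured none.

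No regulator passed the test in any comparison, and none had groups that did not overlap. With limma and Benjamini-Hochberg adjustment over all genes at a threshold of 0.05, 0 of the 9 members were called for HFD+PE against HFD, for HFD+PE against chow, for HFD against chow, or for any difference between the groups. The same held for all genes: 0% of 14217 were called in each of these 4 tests, with smallest adjusted p values of 0.993, 0.104, 0.315 and 0.215 in that order. At an unadjusted p under 0.05 in limma, 1 of 9 members was below it for HFD+PE against HFD, where 2.7% of all genes were (384 genes). The count was 1 of 9 members for HFD+PE against chow, against 11.1% of all genes (1584 genes), and 0 of 9 for HFD against chow, against 7.65% (1088 genes). For any difference it was 1 of 9, against 8.14% (1157 genes). Non-overlapping groups were found for 0 of 9 members in each comparison, and for 0.134%, 1.41% and 0.521% of all genes in HFD+PE against HFD, HFD+PE against chow and HFD against chow. The one member below the unadjusted limit was Ppargc1b each time, so that 1 gene made up all 3 of these counts. They hold for the brightest probe set of each gene. In the limma fit of all probe sets, the second Nrf1 probe set had an unadjusted p of 0.036 for HFD+PE against chow and 0.0207 for HFD against chow. The third Ppargc1a probe set had 0.0486 for HFD against chow in that limma fit. With 9 members a single gene sets the share, so nothing about the members as a group is read from it.

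**Figure D1:**
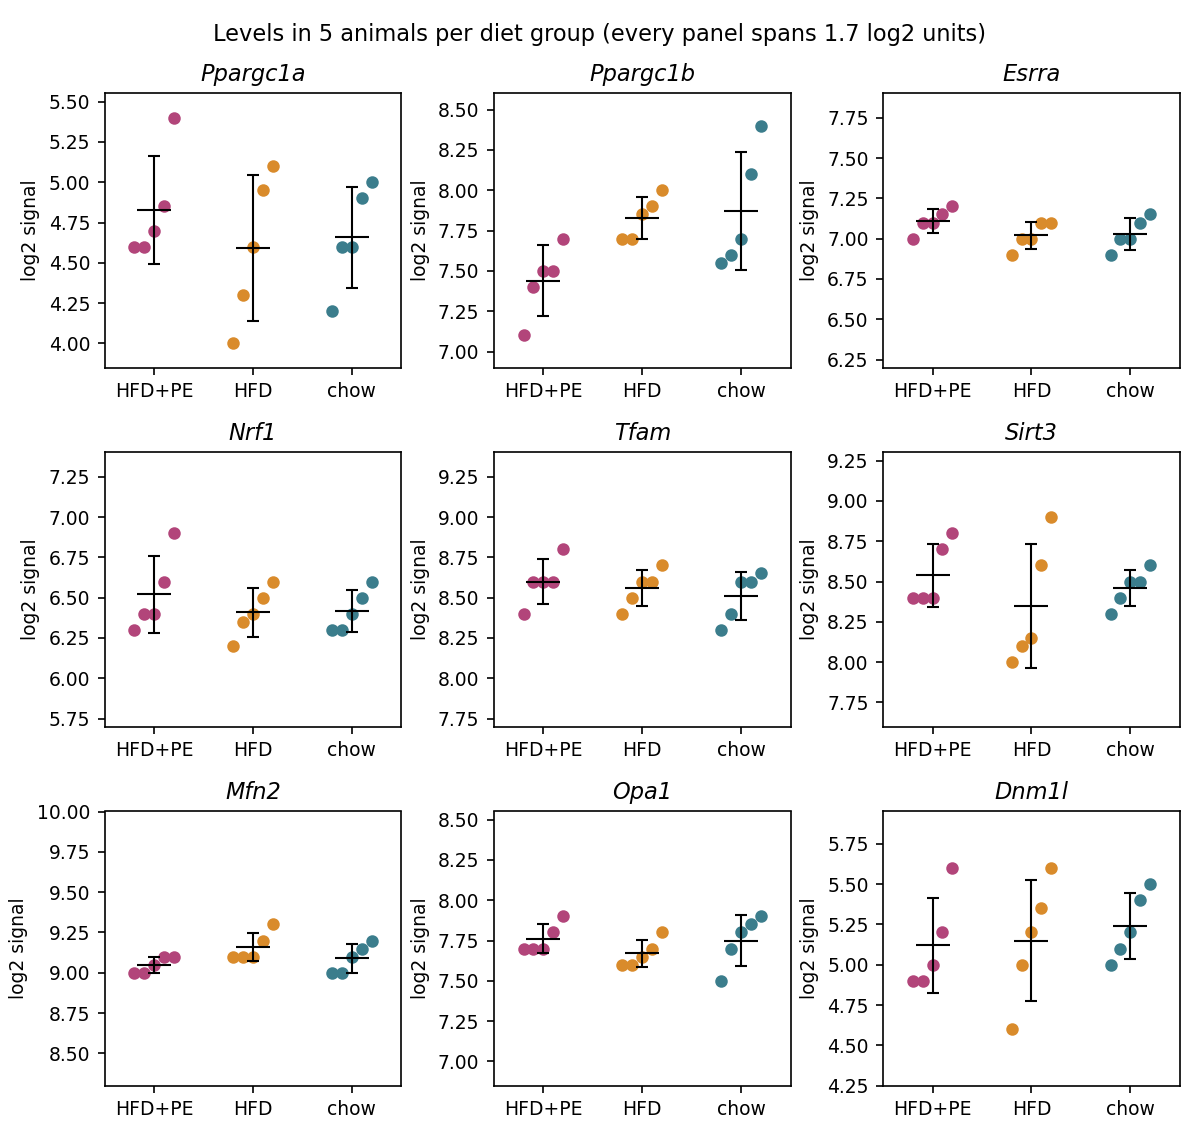
Log2 signal (vertical axis) of the 9 measured regulators in the 5 HFD+PE, 5 HFD and 5 chow animals (horizontal axis); points are animals, and black bars give the mean ± SD. Ppargc1b lay at 7.1 to 7.7 in HFD+PE animals, against 7.7 to 8.0 in HFD and 7.55 to 8.4 in chow animals, and the groups overlapped for every gene.

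Ppargc1b, encoding the coactivator PGC-1β, was lower in HFD+PE livers than in either other group. Its log2 signal was 7.4, 7.7, 7.1, 7.5 and 7.5 in HFD+PE animals. In HFD animals it was 7.85, 7.9, 8.0, 7.7 and 7.7. In chow animals it was 7.7, 8.4, 7.55, 7.6 and 8.1. Thus 4 of the 5 HFD+PE animals lay below all HFD and below all chow animals, and the fifth, at 7.7, equalled the lowest HFD animals. HFD+PE averaged 7.44 ± 0.219, HFD 7.83 ± 0.130 and chow 7.87 ± 0.367 (SD, n = 5 each). The log2 change was −0.39 for HFD+PE against HFD (SE 0.15, 95% interval −0.70 to −0.08), a 0.763-fold level. Its limma p was 0.0182 unadjusted and 0.993 adjusted over all genes, and an exact two-sided permutation test gave an unadjusted 0.0238, where the smallest p possible is 0.00794. Against chow the change in HFD+PE was −0.43 (SE 0.15, 95% interval −0.74 to −0.12), a 0.742-fold level, with a limma p of 0.0104 unadjusted and 0.27 adjusted and an exact permutation p of 0.0476. In the ranking of all genes by p it stood at 116 for HFD+PE against HFD and at 546 for HFD+PE against chow. HFD and chow differed by −0.04 (95% interval −0.35 to 0.27, adjusted p = 0.977 in limma), so the diet alone showed no difference in this gene larger than the spread between animals.

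The evidence for Ppargc1b has measured limits beside it. The array pair counted as animal HFD+PE 3-4, the lowest of all at 7.1, held 6.8 and 7.4, which are 0.6 apart and so further than the group difference. Whether these 2 arrays come from 1 animal is less certain than for the other pairs, and with all 18 arrays as separate animals the change was −0.45 against HFD (limma adjusted p = 0.966). Leaving that animal out gave −0.31 against HFD (limma adjusted p = 0.999), and the unadjusted p was then above 0.05. Within the low hybridization control set the change was −0.31 against HFD (4 and 5 animals, limma adjusted p = 0.993) and −0.28 against chow (4 and 3 animals, adjusted p = 0.627). Without the highest chow animal, number 2, the change against chow was −0.30 (adjusted p = 0.502). Macrophage and Kupffer cell markers were also lowest in HFD+PE. Their mean level over the 9 of 10 listed genes that were measured was 7.34 to 8.27 in HFD+PE animals, 7.63 to 8.55 in HFD and 8.30 to 9.20 in chow, and 8 of 9 were lower in HFD+PE than in HFD and 8 of 9 than in chow. Across the 15 animals Ppargc1b correlated with this marker mean at Pearson r 0.54 (permutation p = 0.0367, 0.225 after adjustment over 36 relations) and Spearman rho 0.45 (permutation p = 0.0972). The r was 0.13 without the 2 animals farthest from the median and 0.35 with group means removed. The part of these cells in the Ppargc1b values was not tested. In whole liver, fewer cells of a type and less RNA per cell cannot be told apart. Other marker lists also varied with Ppargc1b, and these relations were not tested. Pearson r was −0.62 for the mean of 4 pancreas markers and −0.49 for the mean of the hepatocyte markers. For the remaining lists it lay between −0.16 (adipocyte) and 0.39 (endothelial cell). Taken gene by gene, the median r was weaker, at −0.28 for the pancreas and −0.25 for the hepatocyte markers. It was 0.57 for the macrophage and Kupffer cell markers. The mean levels of the 4 pancreas markers ran from 2.75 to 8.14, so dim genes entered that list.

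Ppargc1a, encoding PGC-1α, was measured at 5.4, 4.6, 4.85, 4.6 and 4.7 in HFD+PE animals. It was 4.95, 4.3, 5.1, 4.0 and 4.6 in HFD animals and 5.0, 4.9, 4.6, 4.2 and 4.6 in chow animals. The groups overlapped, with HFD+PE animals at 4.6 to 5.4, HFD animals at 4.0 to 5.1 and chow animals at 4.2 to 5.0, and the pooled SD within groups, 0.372, was above that of 94.8% of genes. HFD+PE averaged 4.83 ± 0.335, HFD 4.59 ± 0.453 and chow 4.66 ± 0.313 (SD, n = 5 each). The log2 change was 0.24 for HFD+PE against HFD (95% interval −0.20 to 0.68), so that a difference between a small decrease and a 1.6-fold increase could not be told from 0. It was 0.17 for HFD+PE against chow and −0.07 for HFD against chow. The last turned to 0.24 with the hybridization control set as a covariate and to 0.19 in the low set alone, so its direction was not settled. The signal was dim on all 3 probe sets, and the second and the third averaged 3.48 and 3.25. These gave 0.15 and 0.18 for HFD+PE against HFD, −0.09 and −0.16 for HFD+PE against chow, and −0.24 and −0.34 for HFD against chow. The last had the smallest p of these (limma adjusted p = 0.746 over all probe sets). The 3 probe sets differed in sign for HFD+PE against chow.

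Esrra, the nuclear receptor ERRα that carries out much of the PGC-1 program, was among the least variable genes, with a pooled SD of 0.0856 that only 2.58% of genes were under. Its signal was 7.1, 7.1, 7.15, 7.2 and 7.0 in HFD+PE animals, 6.9, 7.1, 7.0, 7.1 and 7.0 in HFD animals, and 7.0, 7.1, 7.15, 6.9 and 7.0 in chow animals. The whole span of 0.3 log2 units was 3 rounding steps, and the log2 changes of 0.09, 0.08 and −0.01 for HFD+PE against HFD, HFD+PE against chow and HFD against chow were each under 1 step.

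Nrf1, nuclear respiratory factor 1, lay at 6.9, 6.4, 6.4, 6.6 and 6.3 in HFD+PE animals, 6.35, 6.5, 6.4, 6.6 and 6.2 in HFD animals, and 6.6, 6.4, 6.3, 6.3 and 6.5 in chow animals. The groups lay on top of each other apart from HFD+PE 1, and the changes were 0.11, 0.10 and −0.01 in the same order of comparisons. Its second probe set differed in one respect: HFD+PE stood 0.25 above chow (limma adjusted p = 0.523) and HFD 0.28 above chow (adjusted p = 0.681), with −0.03 between HFD+PE and HFD. The third probe set gave −0.02, −0.01 and 0.01, so that the second probe set's difference was not seen on the other 2.

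Tfam, the mitochondrial DNA packaging and transcription factor, lay at 8.6, 8.8, 8.6, 8.4 and 8.6 in HFD+PE animals. It was 8.6, 8.5, 8.4, 8.7 and 8.6 in HFD animals and 8.6, 8.3, 8.65, 8.6 and 8.4 in chow animals. The 3 groups covered nearly the same values. The changes were 0.04 for HFD+PE against HFD (SE 0.09), 0.09 for HFD+PE against chow and 0.05 for HFD against chow.

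Sirt3, the main mitochondrial deacetylase, lay at 8.4, 8.4, 8.4, 8.7 and 8.8 in HFD+PE animals. In HFD animals it was 8.15, 8.1, 8.6, 8.9 and 8.0, and in chow animals 8.3, 8.6, 8.5, 8.5 and 8.4. The HFD group held both the highest and the 3 lowest animals of the series: 3 of its 5 animals lay under every HFD+PE and chow animal, and 1 lay above all of them. The SD was 0.195 in HFD+PE, 0.384 in HFD and 0.114 in chow (n = 5 each), and no test of the spreads was made. The means differed by 0.19 for HFD+PE against HFD (95% interval −0.12 to 0.50, limma adjusted p = 0.993), by 0.08 for HFD+PE against chow and by −0.11 for HFD against chow. Single HFD animals moved these values: HFD+PE against HFD was 0.33 without HFD 5 and 0.10 without HFD 6, and HFD against chow was −0.25 and −0.02 without the same animals.

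Among the genes of membrane dynamics, Mfn2 (mitofusin 2, outer membrane fusion and contact with the endoplasmic reticulum) was the steadiest, with a pooled SD of 0.0785 that 1.49% of genes were under. It lay at 9.0, 9.0, 9.05, 9.1 and 9.1 in HFD+PE animals, 9.1, 9.2, 9.1, 9.3 and 9.1 in HFD animals, and 9.0, 9.0, 9.15, 9.2 and 9.1 in chow animals. No HFD animal was under 9.1 and no HFD+PE animal was above it, so these groups met at a single value. The change was −0.11 for HFD+PE against HFD (95% interval −0.25 to 0.03, limma adjusted p = 0.993, exact permutation p = 0.0794), −0.04 for HFD+PE against chow and 0.07 for HFD against chow. The 2 arrays of HFD+PE 3-4 read 8.9 and 9.2, as far apart as the whole range of 0.3 over the 15 animals.

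Opa1, the dynamin-like protein that fuses inner membranes and shapes cristae, lay at 7.8, 7.9, 7.7, 7.7 and 7.7 in HFD+PE animals, 7.65, 7.6, 7.6, 7.7 and 7.8 in HFD animals, and 7.9, 7.8, 7.85, 7.7 and 7.5 in chow animals. All 3 groups overlapped. The changes were 0.09 for HFD+PE against HFD, 0.01 for HFD+PE against chow and −0.08 for HFD against chow, and the second probe set gave 0.03, 0.19 and 0.16, so the sign for HFD against chow differed between the 2 probe sets.

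Dnm1l, the fission GTPase DRP1, varied more from animal to animal, with a pooled SD of 0.301 (90.7% of genes had a smaller one). It lay at 4.9, 5.2, 5.6, 4.9 and 5.0 in HFD+PE animals, 5.35, 4.6, 5.0, 5.2 and 5.6 in HFD animals, and 5.0, 5.2, 5.5, 5.4 and 5.1 in chow animals. The groups shared most of their range, and the changes were −0.03 for HFD+PE against HFD, −0.12 for HFD+PE against chow and −0.09 for HFD against chow. The second probe set gave −0.13, −0.13 and 0 in that order.

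**Figure D2:**
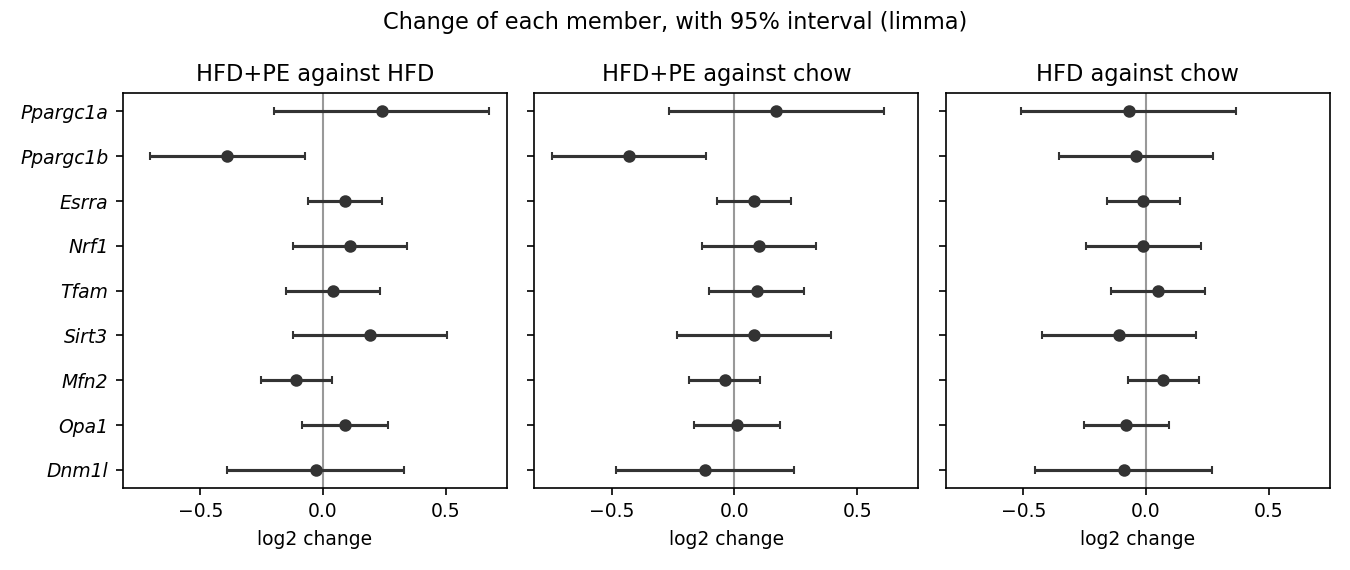
Log2 change of each regulator (horizontal axis) in HFD+PE against HFD, HFD+PE against chow and HFD against chow; points are limma estimates over 5 animals per group and lines are 95% intervals not adjusted for the number of genes. Only the Ppargc1b intervals in the 2 HFD+PE comparisons, −0.70 to −0.08 and −0.74 to −0.12, lay clear of 0.

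As a group the 9 members showed no common shift. In HFD+PE against HFD, 6 were higher and 3 lower, with a median log2 change of 0.09 beside 0 over all genes. Against chow, HFD+PE again had 6 higher and 3 lower, with a median of 0.08 beside 0.01. In HFD against chow 2 were higher and 7 lower, with a median of −0.04 beside 0. These medians were smaller than 1 rounding step of the values. In the moderated F test for any difference between the groups, Ppargc1b had an adjusted p = 0.494 in limma, and the adjusted values of the other 8 ran from 0.879 to 0.985.

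Between the 2 arrays of a pair the members differed by at most 0.6 (Ppargc1b), 0.4 (Ppargc1a), 0.3 (Mfn2), 0.2 (Sirt3, Tfam and Dnm1l) and 0.1 (Esrra, Nrf1 and Opa1). Across the 15 animals they spanned 1.3, 1.4, 0.3, 0.9, 0.5, 1.0, 0.3, 0.7 and 0.4 in that order of genes. The pairs were picked for their closeness and number only 3, so the 2 sets of values are given side by side with no test. For Mfn2 they were equal.

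The members were then compared with each other across animals, with 36 pairs among the 9 genes. A single pair passed adjustment over the 36: Ppargc1a and Mfn2 were inversely related, with Pearson r −0.81 (permutation p = 0.00035, adjusted 0.0126) and Spearman rho −0.73 (permutation p = 0.00232, adjusted 0.0835, above the threshold). The animal with the least Ppargc1a, HFD 5 at 4.0, had the most Mfn2 at 9.3, and the one with the most Ppargc1a, HFD+PE 1 at 5.4, had 9.0 of Mfn2. With group means removed r was −0.82 (adjusted permutation p = 0.0072). Without the 2 animals farthest from the Ppargc1a median r was −0.67 (adjusted 0.27), and in the 12 animals of the low control set it was −0.61 (adjusted 0.435), so the pair did not pass in either. The second and the third Ppargc1a probe set gave r of −0.43 and −0.46 (permutation p = 0.112 and 0.0926, both 0.112 after adjustment over the 3 probe sets). The mean of the hybridization controls was correlated with Ppargc1a at r 0.58 (permutation p = 0.0238, adjusted 0.214) and with Mfn2 at r −0.51 (permutation p = 0.0548, adjusted 0.271), and its part in the relation was not tested. The relation rests on an Mfn2 range of 0.3 that 1 array pair alone spanned. The next pairs, Nrf1 with Dnm1l (r −0.60, adjusted permutation p = 0.311) and Ppargc1b with Tfam (r −0.57, adjusted 0.312), did not pass.

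**Figure D3:**
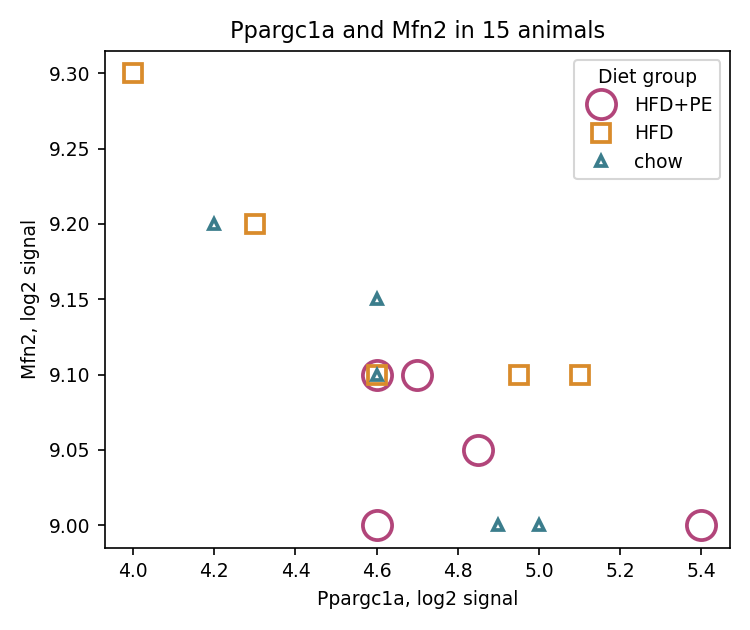
Log2 signal of Ppargc1a (horizontal axis) and of Mfn2 (vertical axis) in the 15 animals; symbols give the diet group, and at 4.6 and 9.1 one animal of each group coincides. Mfn2 spans 9.0 to 9.3 while Ppargc1a spans 4.0 to 5.4, and Pearson r is −0.81.

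Dnm1l and Nrf1 also moved with a measure of RNA quality, the difference between the 3′ and 5′ control probe sets of Gapdh, which grows as RNA is shortened from its 5′ end. This difference averaged 2.93 in HFD+PE (2.4 to 3.4), 2.80 in HFD (2.1 to 3.2) and 2.65 in chow (2.15 to 3.2), so the groups overlapped. It was correlated with Dnm1l at r −0.72 (rho −0.73, permutation p = 0.00255, adjusted over 36 relations 0.0855, r −0.58 without the 2 farthest animals). For Nrf1 r was 0.67 (rho 0.67, permutation p = 0.00475, adjusted 0.0855, r 0.55 without the 2 farthest animals). The same difference for beta-actin gave weaker relations. Its r was −0.49 for Dnm1l (permutation p = 0.0606, adjusted 0.271) and 0.54 for Nrf1 (permutation p = 0.0374, adjusted 0.225). None of these relations passed the adjustment.

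For each member the genes with the most similar profile were looked up among the 7110 genes at or above the median level, by Pearson r over the 15 animals. Genes whose symbol starts with LOC or RGD were left out of the ranking. As the genes named are the highest of the remaining values, they are descriptions with no test, and the arrays share their normalization. The genes nearest to Tfam were Mrpl3 (r 0.92) and Mrpl34 (r 0.88), which encode proteins of the mitochondrial ribosome, and Cnpy2 (r 0.87). Nearest to Mfn2 were Mrpl4 (r 0.90), also of the mitochondrial ribosome, Cuedc2 (r 0.81) and Lrif1 (r 0.80). Nearest to Ppargc1b were Actr2 (r 0.80), a subunit of the actin-nucleating Arp2/3 complex, Ap3d1 (r 0.78), of the AP-3 adaptor, and Smap2 (r 0.78). These 3 members were picked for fuller description after the values had been seen. For the other 6 the nearest gene was Rttn for Ppargc1a (r 0.87), Tomm40 for Esrra (r 0.86), Nup214 for Nrf1 (r 0.85), Smad3 for Sirt3 (r 0.79), Bud31 for Opa1 (r 0.87) and Pank3 for Dnm1l (r 0.90), of which Tomm40 is a mitochondrial import channel and Nup214 a nuclear pore protein.

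The pathway around the members was described from 7 lists of partners, targets and neighbours, in which 0 genes were called in any comparison. Of the partners and upstream regulators of the PGC-1 coactivators, all 18 were measured. HFD+PE against HFD had 9 higher and 9 lower (median −0.01). HFD+PE against chow had 10 higher and 6 lower (median 0.05). Of these 18 genes, 3 had an unadjusted limma p under 0.05, against 11.1% of all genes. HFD against chow had 11 higher and 6 lower (median 0.11, 3 of 18 such genes, against 7.65% of all genes). Pprc1, the remaining coactivator of the family, was 0.38 higher in HFD+PE than in chow (SE 0.13, limma adjusted p = 0.257). Its change was 0.19 for HFD against chow and 0.19 for HFD+PE against HFD. Tfe3, a transcription factor of lysosomal and metabolic genes, lay at 7.5, 7.4, 7.6, 7.8 and 7.5 in HFD+PE animals, against 7.2, 7.3, 7.2, 7.3 and 7.1 in chow animals. These groups did not overlap, as for 1.41% of all genes, and the change was 0.34 (SE 0.09, limma adjusted p = 0.155). With the mean over the probe sets of Tfe3 this change was 0.17 (limma adjusted p = 0.285). HFD animals lay between, at 7.5, 7.6, 7.2, 7.4 and 7.4, and overlapped both groups. Tfe3 changed by 0.20 for HFD against chow (limma adjusted p = 0.625) and by 0.14 for HFD+PE against HFD (adjusted p = 0.993). Yy1, which partners PGC-1α on mitochondrial genes, was 0.20 higher in HFD than in chow (limma adjusted p = 0.594).

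Of 20 genes for the replication and transcription of mitochondrial DNA, 19 were measured. HFD+PE against HFD had 11 higher and 5 lower (median 0.01). HFD+PE against chow had 14 and 4 (median 0.13, 5 of 19 genes at an unadjusted limma p under 0.05, against 11.1% of all genes). HFD against chow had 13 and 6 (median 0.07, 1 of 19 such genes, against 7.65% of all genes). Against chow, HFD+PE was 0.34 higher for Slc25a33, a mitochondrial pyrimidine nucleotide carrier (limma adjusted p = 0.233), and 0.34 higher for Mterf2 (adjusted p = 0.278). HFD was also above chow, by 0.19 for Slc25a33 and 0.20 for Mterf2, and HFD+PE against HFD was 0.15 and 0.14. Without chow 1 the median of 0.13 was 0.0625. Ssbp1, the mitochondrial single-stranded DNA binding protein, was 0.26 higher in HFD than in chow (limma adjusted p = 0.558). Of 20 genes for fusion, fission and cristae beyond the members, 18 were measured, with medians of 0.02, −0.04 and −0.04 for HFD+PE against HFD, HFD+PE against chow and HFD against chow. Mfn1, the second mitofusin, was −0.17 in HFD against chow (limma adjusted p = 0.681). In HFD+PE against chow, Mief1, which recruits DRP1, was −0.14 and the cristae junction subunit Micos13 was −0.22 (limma adjusted p = 0.595 and 0.608). HFD against chow was −0.04 for Mief1 and −0.13 for Micos13, and HFD+PE against HFD was −0.10 and −0.09.

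Of 14 sirtuin and NAD genes, 13 were measured, with medians of 0.02, −0.01 and −0.01 in that order of comparisons. Nampt, the rate-limiting enzyme of NAD salvage, had the greatest change of these lists. Its signal was 9.4, 8.0, 7.15, 8.4 and 7.8 in HFD+PE animals, 10, 8.1, 8.6, 8.3 and 8.9 in HFD animals, and 9.1, 9.8, 9.7, 9.3 and 9.5 in chow animals. Thus 4 of 5 HFD+PE animals lay below all chow animals, and HFD animals spread from 8.1 to 10. The change for HFD+PE against chow was −1.33 (SE 0.36, limma adjusted p = 0.17), and with the mean over its probe sets it was −0.83 (adjusted p = 0.154). Nmnat3 and Parp2 were 0.25 and 0.17 higher in HFD+PE than in chow (limma adjusted p = 0.484 and 0.559). HFD was also above chow, by 0.22 for Nmnat3 and 0.10 for Parp2, and HFD+PE against HFD was 0.03 and 0.07.

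Of 13 mitophagy genes 11 were measured, with medians of 0.04, 0.06 and 0.04. Pink1, the kinase that marks damaged mitochondria, was 0.32 higher in HFD+PE than in chow (SE 0.10, limma adjusted p = 0.237), and the mitophagy receptor Optn was 0.25 higher (adjusted p = 0.366). HFD livers were also above chow, by 0.17 for Pink1 and 0.21 for Optn. HFD+PE against HFD was 0.15 for Pink1 and 0.04 for Optn. Bnip3 was 0.20 higher in HFD+PE than in HFD (adjusted p = 0.993), and 0.0925 without HFD+PE 1. Of 18 liver and mitochondrial targets of the PGC-1 coactivators 15 were measured, with medians of −0.02, 0.02 and 0.04. Cpt1a, which admits fatty acids to mitochondria, and Acadm, which oxidizes medium-chain ones, were each 0.21 higher in HFD+PE than in chow (limma adjusted p = 0.456 and 0.537), and Acadm 0.12 higher without chow 2. HFD against chow was 0.06 for Cpt1a and 0.14 for Acadm, and HFD+PE against HFD was 0.15 and 0.07. Fgf21, a fasting hormone of the liver, was 0.70 higher in HFD+PE than in HFD (SE 0.38, adjusted p = 0.993), and 0.39 without HFD+PE 5. Of 11 SIRT3 substrates 10 were measured, with medians of −0.05, −0.01 and 0.04. Acss1 and Glud1 were −0.26 and −0.20 in HFD+PE against HFD (both with adjusted p = 0.993), and Acadl was 0.27 higher in HFD+PE than in chow (limma adjusted p = 0.48). Acadl was also 0.24 higher in HFD than in chow, and its HFD+PE against HFD change was 0.03. The medians over all genes were 0, 0.01 and 0.

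**Figure D4:**
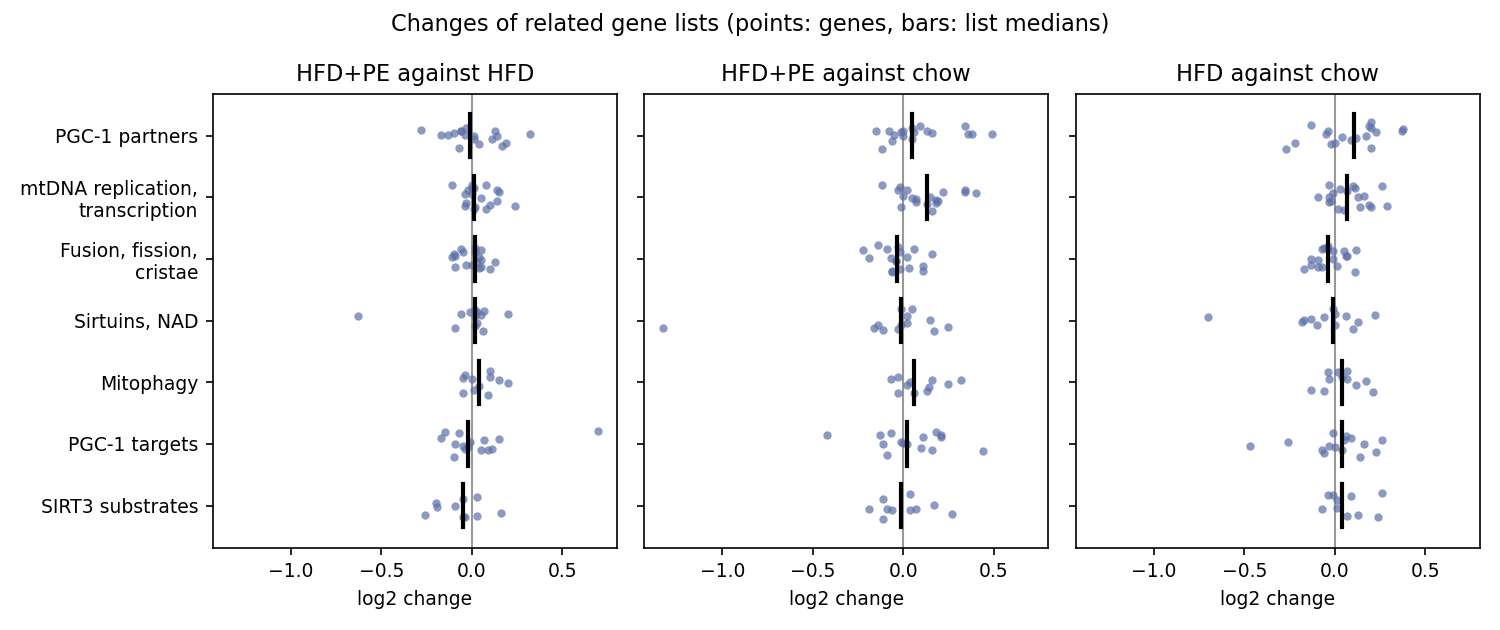
Log2 change (horizontal axis) of the genes of 7 related lists in HFD+PE against HFD, HFD+PE against chow and HFD against chow; points are genes and black bars are list medians. The medians lay between −0.05 and 0.13, and the point at −1.33 for HFD+PE against chow is Nampt.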

How the data were processed

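The authors' deposited values are log2 signals of 31099 Affymetrix probe sets on 18 liver arrays. Per the submitters' processing notes they came from Affymetrix Expression Console with RMA, which corrects background, quantile-normalizes and summarizes probes. Neither version is stated in the sources used here. Values spanned 2.2 to 15, and each of the 559782 was a multiple of 0.1 within 1e-06. Quantile normalization can hide a shift shared by most genes. Arrays have no read depth, and their number limits the precision.

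Tests excluded 57 control probe sets. In the platform annotation, 20826 of the other probe sets named 1 gene symbol, 436 several and 9780 none, and only the first kind was used. Symbols were updated through the Entrez identifier (20758) or an accession (3), and 65 were kept. The probe set with the highest mean signal stood for each of 14217 genes, of which 4525 had several.

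Near-identical arrays were averaged, giving 15 animals. Groups were taken from the sample labels and compared by linear models (limma 3.58.1, statmod 1.5.0, run under R 4.3.3) that give each group its own mean, followed by eBayes, two-sided tests and Benjamini-Hochberg adjustment over all genes at 0.05. Probe sets other than the brightest were fitted with all probe sets. The code was tested on simulated data. Correlations used Python 3.11.15 with 1e+05 permutations; as Sirt1 was not measured, 36 pairs of members were compared. Where nothing shows that arrays came from separate animals, p values cover only the spread between these samples.

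The members and lists were chosen with earlier results of these data known. Named genes were all members and, of each list, up to 3 with the smallest unadjusted p in any comparison, plus any past the threshold; for profile similarity, all 9 measured members were searched and 3 described in full. The Gapdh, beta-actin, control and macrophage marker relations, the further Ppargc1a probe sets with Mfn2, and the lipid genes were added after values were seen. The alternatives were counting 18 arrays, the animal as a random block, the replicate number as a block, the hybridization control set as a covariate or its low set alone, dim genes removed, arrays centred on their medians, the mean over probe sets, all probe sets singly, a robust prior with a trend, and leaving out each animal in turn.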

Additional observations from a re-analysis of the deposited data

How the results depend on the processing

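No member passed the threshold under any alternative, and the smallest adjusted p among 666 member values was 0.134 in limma. Of these values 624 kept the sign of the main fit and 42 did not; the 42 fell in 12 of the 27 member comparisons, none with a main change above 0.17. Whether the replicate numbers of the labels pair the samples was not settled. Residuals of same-numbered arrays of different groups correlated at −0.305 to 0.189 (median 0.037), and those of the other 90 pairs at −0.248 to 0.227 (median −0.018). Of the same-numbered pairs 4 of 18 were over 0.1, and 5 of 18 arrays correlated best with their own number. With the replicate number as a block on 18 arrays, 119 genes passed for HFD+PE against chow, 29 for any difference, 0 for HFD+PE against HFD and 0 for HFD against chow, where the main fit called 0 throughout; Nampt (−1.53, adjusted p = 0.0427) was among the 119. With 18 arrays as separate animals and no block, 145 genes passed for HFD+PE against chow, with Nampt (−1.53) and Tfe3 (0.35), and 19 for any difference. With the animal as a random block 29 passed for HFD+PE against chow. In the low control set alone, 3 passed for HFD+PE against chow, 3 for any difference and 1 for HFD against chow. Leaving out 1 animal at a time gave 0 to 26 genes for HFD+PE against chow, 0 to 12 for any difference, 0 to 2 for HFD+PE against HFD and 0 to 1 for HFD against chow; all highest counts but the last came without HFD+PE 3-4 (26, 12 and 2), and the last without HFD 1-2. The cause was not tested. With 18 arrays, with or without the replicate block, HFD against chow was 0.0167 for Ppargc1b, HFD+PE against HFD 0.0167 for Dnm1l, and HFD+PE against chow −0.0167 for Opa1. With the control set as a covariate, HFD against chow was 0.244 for Ppargc1a, 0.0206 for Esrra and 0.107 for Nrf1. In the low set alone it was 0.19 for Ppargc1a, 0.03 for Ppargc1b, 0.02 for Esrra, 0.0433 for Nrf1 and −0.00667 for Mfn2, and HFD+PE against HFD was 0.025 for Dnm1l. With arrays centred, HFD against chow was 0.01 for Esrra and 0.01 for Nrf1. With the mean over probe sets it was 0.0933 for Nrf1 and 0.04 for Opa1, and HFD+PE against chow was −0.0267 for Ppargc1a. Leaving out 1 animal at a time, HFD against chow ran from −0.198 to 0.0775 for Ppargc1a, −0.12 to 0.0925 for Ppargc1b, −0.0425 to 0.02 for Esrra, −0.0025 to 0.09 for Tfam, −0.0575 to 0.0425 for Nrf1 and −0.203 to 0.0475 for Dnm1l; HFD+PE against HFD ran from −0.168 to 0.0825 for Dnm1l and −0.01 to 0.09 for Tfam, and HFD+PE against chow from −0.0525 to 0.0475 for Opa1. Ppargc1b kept its sign in both HFD+PE comparisons under every alternative run: it ran from −0.46 to −0.31 against HFD and from −0.51 to −0.30 against chow over the animals left out, and was −0.45 against HFD with 18 arrays. Of 525 list medians under alternatives, 9 moved, 8 of them for mitophagy (−0.0217 to 0.107) and 1 for mitochondrial DNA genes (0.0625 without chow 1). The inverse relation of Ppargc1a and Mfn2 gave r −0.61 in the low set and −0.67 without the 2 animals farthest from the median, and in both 0 of the 36 pairs passed; it gave −0.43 and −0.46 with the other 2 Ppargc1a probe sets, an alternative chosen after seeing the data. For dim genes such as Ppargc1a and Dnm1l, the spread between animals (pooled SD 0.372 and 0.301) and 5 animals per group limit what can be resolved. The rounding to 0.1 limits it for Mfn2 and Esrra, whose pooled SDs of 0.0785 and 0.0856 are under 1 rounding step.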

Other observations

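PGC-1β is known in liver as a coactivator of SREBP, the driver of lipid synthesis genes, so Ppargc1b was set against 6 such genes across the 15 animals; the genes were chosen after other values had been seen. Pearson r was −0.34 for Srebf1, 0.10 for Srebf2, 0.30 for Fasn (fatty acid synthase), 0.28 for Scd (stearoyl-CoA desaturase), 0.41 for Acaca (acetyl-CoA carboxylase) and 0.14 for Acly (ATP citrate lyase). No relation passed adjustment over the 6, and the smallest adjusted permutation p was 0.469. With group means removed, r was negative for all 6 genes, from −0.22 for Acaca to −0.42 for Scd. Without the 2 animals farthest from the Ppargc1b median, r was −0.08 for Srebf1 and positive for the others, from 0.36 for Fasn to 0.51 for Acly. In the low control set r was −0.37 for Srebf1 and positive for the others, from 0.04 for Srebf2 to 0.31 for Acaca. Thus r was negative for Srebf1 each time, and for the other genes its sign depended on how it was taken.

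In the 27 groups of 5 values, 9 members in 3 diet groups, 0 held an animal far from the others by Dixon's test.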
